A study of Mus musculus with 454 samples.

Results

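Uts2b is the mouse gene for urotensin 2B, the precursor of urotensin II-related peptide, and it is described here in single sensory neurons of the nodose ganglion. It was taken by its symbol, as 1 of 36920 genes in the read table of picked cells and 1 of 28001 genes in the 10x library. All cells came from wild type C57BL/6 mice, and the labels name no treatment. The droplet library (10x Genomics, 1 sample) was made from mice aged 6 weeks and counts unique molecular identifiers (UMIs). The picked cells came from mice aged 8 to 12 weeks, and each picked cell was its own Smart-seq2 library. The authors' table gives every picked cell a mouse and a target code (GastG, GastP, IntP, IntM, IntD, IntL, Port or na), which the sources used here do not expand. Gast and Int below stand for all codes that begin so, and mice of the code na enter no comparison of codes.

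The urotensin system consists of the peptides urotensin II (from Uts2) and urotensin II-related peptide (from Uts2b) and their shared G protein-coupled receptor (Uts2r), which signals through Gq. Both peptides are cut from longer precursors by prohormone convertases at basic residues, and both end in the same ring closed by a pair of cysteines, as somatostatin and cortistatin carry a related ring. Vagal sensory neurons have their cell bodies in the nodose ganglion and carry signals from the gut, the liver, the lungs and the heart to the brainstem.

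Uts2b (ENSMUSG00000056423) lies on the minus strand of chromosome 16 at 27353322 to 27370239 (mm10). GENCODE vM21 lists 1 transcript of 835 bases in 5 exons, all of them coding in part. Ostn ends at 27351212 and Ccdc50 begins at 27388869, both on the plus strand, so neither overlaps it. Overlap with other annotated genes was not searched. The last 120 bases of the coding sequence are shown because they hold the mature peptide, with the 18 bases of its ring in capitals (in the last exon, chr16:27353718-27353735, minus strand):
Uts2b coding end: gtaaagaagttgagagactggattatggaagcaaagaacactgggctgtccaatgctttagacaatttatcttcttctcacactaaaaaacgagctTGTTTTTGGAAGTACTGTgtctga
The ring of Uts2 (chr4:151001657-151001674, plus strand) is set beside that of Uts2b, with the 2 cysteine codons of each in capitals:
Uts2b ring: TGTttttggaagtacTGT
Uts2 ring: TGCttctggaaatacTGC
The rings are identical at 14 of 18 bases. From Uts2b to Uts2 the substitutions are T3C, T6C, G12A and T18C, counted from 1 at the first base of the ring.

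Picked cells that passed a minimum of 2000 genes had a median of 1617520 reads (3933 to 4692461). A cell is counted as a Uts2b cell at 10 reads or more. There were 37 such cells (8.24%) in 19 of 34 mice, and they held nearly all of the gene's 68370 reads: cells under 10 reads held 0.281%. Uts2b had 1 to 9 reads in 87 cells, 10 to 99 in 6, from 100 to below 1000 in 18 and 1000 or more in 13, and none in the rest. The Uts2b cells ran from 10 to 12131 reads with a median of 549, or from 6.54 to 11836 CPM (reads scaled to the cell's total) with a median of 423.8. The 3 highest cells, with 12131, 11856 and 7405 reads, held 45.9% of all Uts2b reads; the first had the code IntD and the others IntM. Just inside the threshold lay cells of 10, 13, 20 and 30 reads, and just outside it cells of 9, 9, 9, 8, 8 and 8 reads. Uts2b was thus high in a small set of neurons, and uneven among them.

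The first question was whether Uts2b differed between target codes. Uts2b was highest in IntM: its 3 mice were at a mean log2(CPM + 1) over cells of 1.81, 3.34 and 3.06, and 3 of 15, 3 of 13 and 4 of 17 of their cells were Uts2b cells (22.2% ± 1.92, SD, n = 3 mice). IntM was the only code in which every mouse had Uts2b cells. The 3 IntL mice were at 0.81, 0.06 and 3.11, with 2 of 16, 0 of 12 and 5 of 16 cells, so this code held both one of the highest mice and one of the lowest. The 3 IntD mice were at 1.24, 1.01 and 0.85, with 1 of 17, 1 of 14 and 0 of 4 cells. In the 4 IntP mice the levels were 0.44, 0.07, 1.18 and 0.44, and the only Uts2b cell was 1 of 7 in the third mouse. All Int mice together thus spanned 0.06 to 3.34.

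The 5 GastG mice were at 0.18, 0.21, 0.65, 0.63 and 1.203, with 0 of 5, 0 of 8, 1 of 13, 2 of 18 and 2 of 16 Uts2b cells. The 3 GastP mice were at 0.28, 1.16 and 0.08, and the mouse at 1.16 held the only Uts2b cell, 1 of 12. The 8 Port mice ran from 0.06 through a median of 0.34 to 0.93, and 4 of them held 5 Uts2b cells. A further Port mouse had 2 cells, too few for the fit, neither with Uts2b. The 4 mice of the code na ran from 0 through a median of 0.90 to 2.40, with 6 Uts2b cells of 53.

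In order of the mean over mice, the codes stood at 2.73 ± 0.81 in IntM, 1.33 ± 1.59 in IntL, 1.03 ± 0.20 in IntD, 0.57 ± 0.42 in GastG, 0.53 ± 0.46 in IntP, 0.51 ± 0.58 in GastP and 0.42 ± 0.34 in Port (SD over mice). The IntM mice (1.81 to 3.34) overlapped those of IntL and lay above every mouse of IntD, IntP, GastG, GastP and Port. The mice of each pair of neighbours in this order overlapped. Median reads per cell were lowest in IntM (1370330) and highest in Port (1895910), and the part of depth in the order was not tested beyond the thinned values given at the end.

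**Figure D1:**
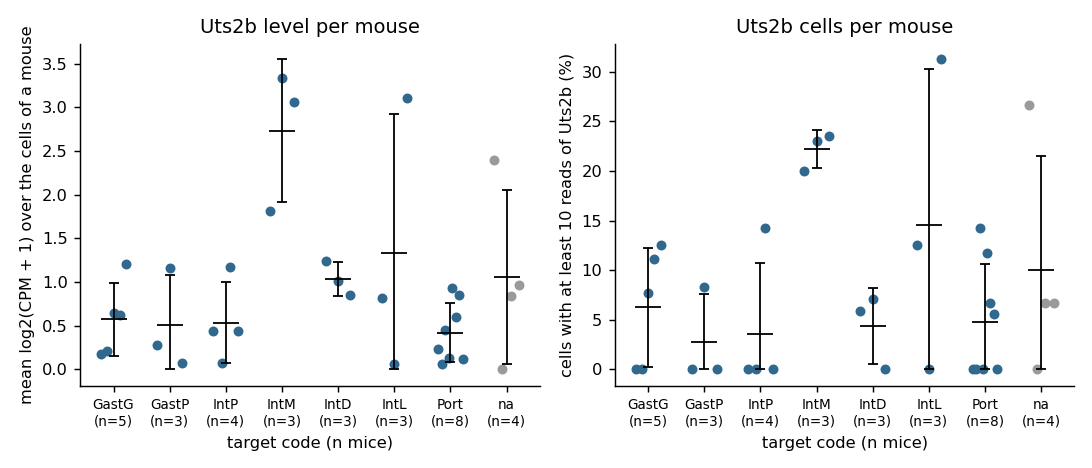
Uts2b in each mouse with at least 4 cells, by target code: the mean log2(CPM + 1) over its cells (left) and the share of its cells with at least 10 reads of Uts2b in percent (right). Points are mice, and bars are the mean and SD over mice, with the lower arm cut at 0. The 3 IntM mice lie between 20% and 23.5% of cells, and the IntL mice between 0 and 31.2%. Mice of the code na are grey.

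The fit over 29 mice and 12702 genes (limma, means over cells per mouse, Benjamini-Hochberg over all genes) gave a difference of -0.87 ± 0.28 (SE) on the log2 scale for the mean of the Gast codes minus the mean of the Int codes, with an adjusted p of 0.0335. Of the 8 Gast mice, 6 lay below the median of the 13 Int mice, and 5.74% of all genes were lower in Gast by the same rule. The call did not hold without the 3 IntM mice, an alternative chosen after the values were seen (-0.42, adjusted p = 0.377, limma). It held without the 3 IntL mice, chosen in the same way (-0.89, adjusted p = 0.00437, limma). The count test on summed reads (edgeR) gave -1.48 with an adjusted p of 0.520. The call was also lost when any of 8 mice was left out, namely GastG 7 and 8, GastP 9 and 44, IntD 14, IntP 16 and IntM 20 and 26, with the adjusted p from limma between 0.0503 and 0.108 and the difference between -0.84 and -0.76.

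Across the 4 Int codes the F test of the same fit gave 7.96 with an adjusted p of 0.0143 (limma), where 9.84% of all genes passed. The call was lost without IntM mouse 20 (F = 4.60, adjusted p = 0.0781, limma) or IntM mouse 26 (F = 5.06, adjusted p = 0.0627, limma), and edgeR gave an adjusted p of 0.448. Port minus the mean of Gast and Int was -0.55 ± 0.25 (95% interval -1.07 to -0.03) and did not pass (adjusted p = 0.187, limma). Of all genes, 2.95% were lower in Port. GastG minus GastP was 0.07 (interval -0.84 to 0.97) and IntL minus the other Int codes was -0.10 (interval -0.92 to 0.71), with adjusted p of 0.998 and 0.922 (limma). By the same rule 2.47% of all genes were lower in IntL, and limma called 0 genes between GastG and GastP (4.32% at an unadjusted p under 0.05). The intervals of GastG minus GastP and of IntL minus the other Int codes span 0, while that of Port lies below 0 before adjustment over genes.

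The share of Uts2b cells per mouse gave no difference past the threshold. It was 4.95% ± 5.50 in the 8 Gast mice and 10.6% ± 10.996 in the 13 Int mice (difference of -5.635 percentage points, exact two-sided permutation p = 0.196, 0.325 adjusted over 2 tests). In the 8 Port mice it was 4.78% ± 5.79, against 8.44% ± 9.54 in the 21 Gast and Int mice (exact two-sided permutation p = 0.325, the same after adjustment). Uts2b cells were present in 4 of 8 Gast, 8 of 13 Int and 4 of 8 Port mice. In picked cells these values count the cells that were picked, so fewer Uts2b neurons and less RNA per neuron cannot be told apart in a mean over cells.

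The second question was which other genes were high or low in the same cells. Within each of 19 mice, the 37 Uts2b cells were compared with the other cells, with the mouse as a block, mice of all codes, na among them, and Uts2b itself left out. Cckar, the receptor for cholecystokinin, had the highest difference of all genes. It was at 453.5 to 4461 CPM in the Uts2b cells with a median of 2703, and at 0 to 3829 CPM with a median of 1.62 in all other cells of the table. Every one of the 37 Uts2b cells thus had high Cckar, while 53 of the other cells also exceeded the lowest of them. The difference was 8.29 ± 0.31 on the log2(CPM + 1) scale (SE, n = 19 mice, higher in 19 of 19, limma adjusted p = 2.9e-15). Over all 12701 genes tested, 12.8% were higher and 10.0% were lower in Uts2b cells by this rule, 1630 and 1272 genes. Median depth was 1562750 reads and 11320 genes in the 37 Uts2b cells and 1626650 reads and 11393 genes in all others.

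**Figure D2:**
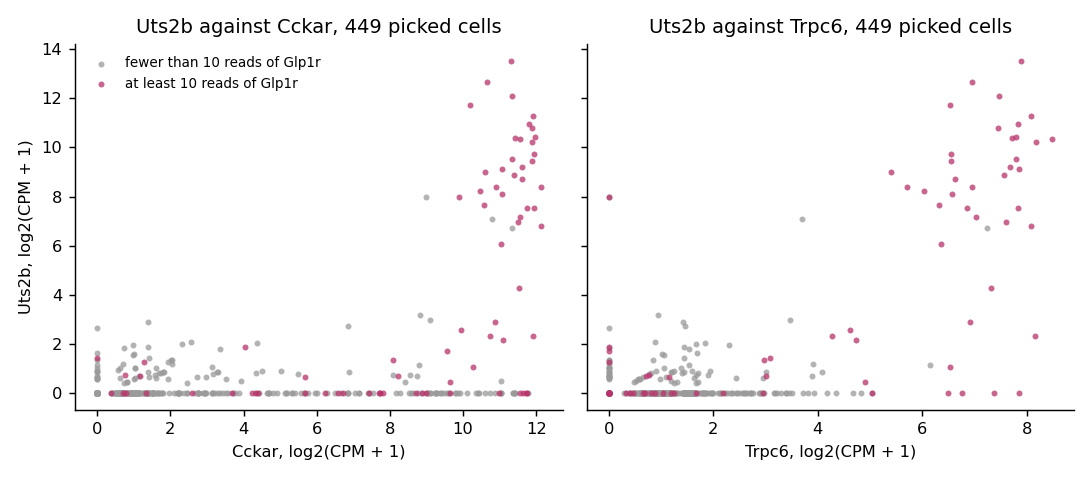
Uts2b against Cckar (left) and Trpc6 (right) in the picked cells, all as log2(CPM + 1). Each point is a cell, coloured by whether it had at least 10 reads of Glp1r. High Uts2b lies only at high Cckar, while many cells with high Cckar have no Uts2b, and 33 of the 37 Uts2b cells are Glp1r cells.

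The reverse did not hold for Cckar. Of 84 cells with at least 1000 reads of Cckar, 37 were Uts2b cells (44.05%) and 47 were not. By code these were 10 of 10 in IntM, 2 of 3 in IntD, 1 of 2 in IntP, 7 of 15 in IntL, 5 of 10 in GastG, 1 of 3 in GastP, 5 of 31 in Port and 6 of 10 in na. In IntM all cells with that much Cckar carried Uts2b, and in Port 16.1% did. The threshold of 1000 reads was chosen after the values were seen, and the difference between codes was not tested.

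Among receptors and channels of vagal afferents, 10 of 25 tested were higher in Uts2b cells and 5 were lower. Over all genes tested, the shares were 12.8% and 10.0%. The median difference was 0.22, against 0.01 over all genes tested. This list and the lists below were chosen with earlier results of these data known, so their counts are descriptions and no test. After Cckar came Npy2r, a receptor for peptide YY and neuropeptide Y, at 285.3 CPM (median) in Uts2b cells against 0 in the others, with at least 10 reads in 37 of 37 Uts2b cells and 35.2% of the others. Its difference was 5.66 ± 0.29 (19 of 19 mice, limma adjusted p = 6.9e-13). Glp1r, the receptor for glucagon-like peptide 1, had at least 10 reads in 33 of 37 Uts2b cells (89.2%, exact Clopper-Pearson 95% interval 74.6 to 96.97) and 41 others (9.95%). Its difference was 4.39 ± 0.37 (18 of 19 mice, limma adjusted p = 3.8e-09). The capsaicin channel Trpv1 (3.95 ± 0.26), the secretin receptor Sctr (3.48 ± 0.40), the nicotinic subunit Chrna3 (2.43 ± 0.30), the oxytocin receptor Oxtr (2.42 ± 0.38), the cholecystokinin receptor Cckbr (1.79 ± 0.49) and the mu opioid receptor Oprm1 (1.52 ± 0.26) were higher as well. Of the 43 cells with Sctr, 27 were Uts2b cells (62.8%), the highest share among the genes whose shared cells were counted. The other 16 cells are 3.88% of the cells without Uts2b. Sctr thus passed the filter of 10 reads in 5% of cells only through the Uts2b cells. Its difference is a description, and its place among the 10 higher genes is no evidence on the list.

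The lower genes of that list included Gpr65, a proton-sensing receptor, which had at least 10 reads in 3 of 37 Uts2b cells (8.11%, interval 1.70 to 21.9) and 43.9% of the others. Its difference was -2.61 ± 0.41 (lower in 18 of 19 mice, limma adjusted p = 3.0e-05). P2rx3, a subunit of ATP-gated channels, fell by 2.08 on the log2 scale (SE 0.42), while its partner subunit P2rx2 was higher by 1.03 ± 0.21. Also lower were P2ry1 (-1.78 ± 0.38), Piezo1 (-1.87 ± 0.26) and the cannabinoid receptor Cnr1 (-1.28 ± 0.29). The irritant channel Trpa1 had at least 10 reads in 14 of 37 Uts2b cells (37.8%) and 22.6% of the others.

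Of 16 neuropeptide genes tested, 4 were higher and 4 were lower in Uts2b cells, with a median difference of -0.24. The shares over all genes tested were 12.8% higher and 10.0% lower. Vip, which encodes vasoactive intestinal peptide, had the largest difference, 5.45 ± 0.78 (16 of 19 mice, limma adjusted p = 1.0e-05). It ran from 0 to 17818 CPM in Uts2b cells, with a median of 292.97 CPM, 7 of 37 cells at 0 and 27 with at least 10 reads. Gal, which encodes galanin, was higher by 3.22 ± 0.59, Cartpt (the CART peptide) by 2.27 ± 0.50 and Pdyn (prodynorphin) by 2.04 ± 0.42. Pdyn had 10 reads in 17 Uts2b cells and 11 others (2.67%), so it passed the filter only through the Uts2b cells. Its difference is a description, and its place among the 4 higher peptides is no evidence on the list. Adcyap1, which encodes PACAP, was at a median of 4.74 CPM in Uts2b cells against 74.8 CPM in the others, a difference of -2.77 ± 0.48. The other lower peptides were Edn3 (-1.20 ± 0.35), Calca (-1.14 ± 0.27) and Sst (-0.75 ± 0.21). Edn3 had 10 reads in 0 of 37 Uts2b cells, which allows a share of up to 8.11%, and in 66 others. Calca and Sst each had 10 reads in 1 of 37.

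Genes of peptide processing and dense-core vesicles were higher in 8 of 21 cases and lower in 2, with a median difference of 0.31. Of all genes tested, 12.8% were higher and 10.0% lower. Pcsk1, the prohormone convertase 1, ran from 359.6 to 1338 CPM in Uts2b cells with a median of 932.0, and its median was 142.2 CPM in the others, of which 45 exceeded the lowest Uts2b cell. Its difference of 2.51 ± 0.13 was higher in 19 of 19 mice (limma adjusted p = 6.6e-13). Pcsk2, the convertase 2, had the opposite sign, at a median of 70.3 CPM against 130.8 CPM in the others (-1.09 ± 0.16, lower in 16 of 19 mice, limma adjusted p = 1.9e-05). Qpct, a glutaminyl cyclase that modifies peptide N termini, was higher by 2.74 ± 0.26, and Pam, which amidates peptide C termini, by 1.72 ± 0.15. Of vesicle proteins, secretogranin Scg2 was higher by 1.72 ± 0.14, Vgf by 1.13 ± 0.33, Chgb by 0.79 ± 0.18 and Scg3 by 0.55 ± 0.17, and Cpe, carboxypeptidase E, by 0.54 ± 0.11. The vesicle calcium sensor Syt4 was lower (-0.80 ± 0.13).

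**Figure D3:**
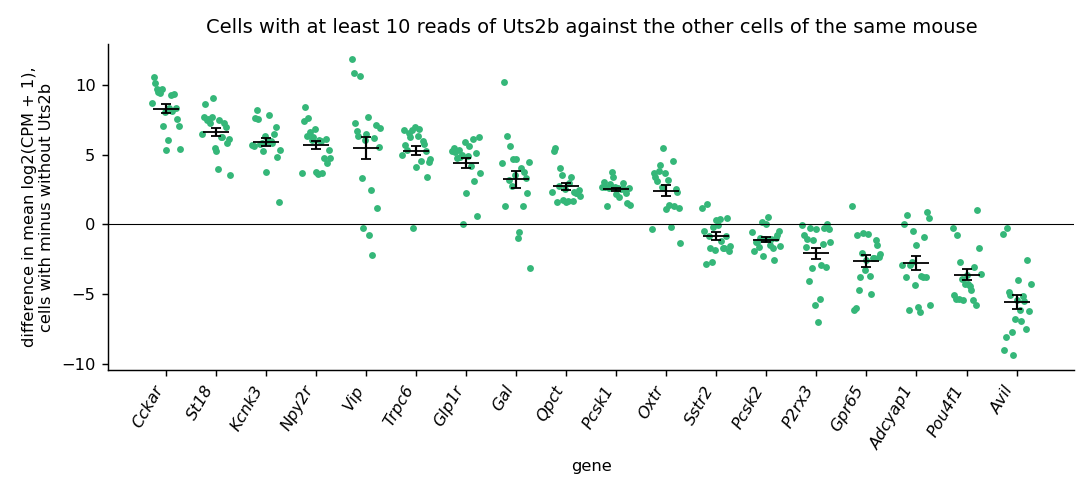
Differences in mean log2(CPM + 1) between cells with at least 10 reads of Uts2b and the other cells of the same mouse. Green points are the 19 mice, and black bars are the limma estimate and its SE. Cckar, St18, Kcnk3, Npy2r and Pcsk1 lie above 0 in every mouse, and Avil lies below 0 in every mouse.

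Of the urotensin and somatostatin system, Uts2 had 1 read in 1 cell of the table. The receptor Uts2r had at least 10 reads in 6 cells of 5 mice, at most 68 reads, and none of them was a Uts2b cell. Uts2b cells were 8.24% of all cells, so 6 cells are too few to show whether the 2 genes share neurons. Neither gene, nor Cort, Sstr1 or Sstr3, passed the filter of 10 reads in 5% of cells. Of the 4 members that did, the somatostatin receptors Sstr4 (1.30 ± 0.30) and Sstr5 (1.11 ± 0.37) were higher in Uts2b cells and Sstr2 (-0.83 ± 0.28) and Sst were lower (limma adjusted p of 0.00211, 0.0310, 0.0319 and 0.0117). The median of the 4 was 0.18. Leaving out 1 mouse ended the call of Sstr2 in 9 of 19 cases (limma adjusted p up to 0.0667) and that of Sstr5 in 6 of 19 (up to 0.0636). Other settings ended the call of Sstr2 in 5 of 10 cases, of Sstr5 and Sst in 4 of 9 each and of Sstr4 in 3 of 9. Of 8 genes of Gq signalling, 1 was higher and 1 was lower (median -0.21), beside 12.8% and 10.0% of all genes. These were the phospholipase Plcb2, by 1.64 ± 0.28, and Gnaq, the G protein subunit, by -0.40 ± 0.09. Plcb2 had 10 reads in 11 Uts2b cells and 14 others (3.40%), so it too passed the filter only through the Uts2b cells, and the count of 1 higher is no evidence on the list.

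Transcription factor genes divided evenly, with 5 of 16 higher and 5 lower (12.8% and 10.0% over all genes) and a median of -0.17. Pou4f1, a POU factor of sensory neurons, was at a median of 0 CPM in Uts2b cells and 44.5 CPM in the others (-3.60 ± 0.40, lower in 18 of 19 mice). Casz1 was lower in 19 of 19 mice (-2.87 ± 0.24), and Runx1 (-0.96 ± 0.27), Tshz2 (-0.95 ± 0.16) and Isl2 (-0.41 ± 0.12) were lower too. Prrxl1 (1.90 ± 0.41), Tbx3 (1.77 ± 0.23), Hoxb6 (1.44 ± 0.23), Etv1 (1.08 ± 0.19) and Hoxb5 (0.93 ± 0.11) were higher. Outside the lists, the highest differences were in St18 (6.64 ± 0.29), Tmem255b (6.50 ± 0.33), the background potassium channel Kcnk3 (5.91 ± 0.30), the myosin light chain Myl1 (5.80 ± 0.60) and the cation channel Trpc6 (5.29 ± 0.35). The lowest were Avil, which encodes the actin-binding protein advillin (-5.54 ± 0.50), Dcdc2a (-4.41 ± 0.50), the adhesion gene Alcam (-3.80 ± 0.46), the nicotinic subunits Chrna6 (-3.75 ± 0.34) and Chrnb3 (-3.38 ± 0.34), Synpr (-3.71 ± 0.59) and Olfm3 (-3.36 ± 0.33). Avil had at least 10 reads in 9 of 37 Uts2b cells and 87.86% of the others.

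Some marker genes of other cell types moved with Uts2b. The summed level of 7 satellite glia markers had a median of 9.76 (1.65 to 13.2) on the log2(CPM + 1) scale in Uts2b cells and 5.87 (0 to 13.5) in the others, and 1 of the 7, Fbln2, was higher (1.39 ± 0.38, limma adjusted p = 0.00797). Fabp7 and Apoe did not pass (adjusted p = 0.0737 and 0.449, limma). Of the sympathetic markers, Th, the enzyme that makes DOPA, was higher by 4.81 ± 0.51 with at least 10 reads in 37 of 37 Uts2b cells, Ddc was higher by 1.84 ± 0.67 and Dbh was lower (-1.77 ± 0.33). Flt1, the only endothelial marker tested, was higher by 2.36 ± 0.34, while Cdh5 was at 0 in all Uts2b cells. Ptprc (immune), Acta2 (mural) and Prdm12 (jugular) were at 0 in all of them too. Of 6 neuronal markers 1 was higher and 4 were lower, of 6 nodose markers 1 and 1, and of 4 jugular markers 1 and 2. These lists are small, and over all genes 12.8% were higher and 10.0% lower. No marker of myelinating Schwann cells (5 tested, 1 lower), mural cells (2 tested), fibroblasts (2 tested, 1 lower), immune cells (1 tested) or red blood cells (2 tested, both lower) was higher. The part of these markers in the gene differences was not tested.

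A narrower comparison took cells with at least 10 reads of Glp1r alone, 17 with Uts2b and 25 without from 10 mice. Cckar was higher in the Uts2b cells by 5.03 ± 0.91 (10 of 10 mice, limma adjusted p = 0.0271), Trpc6 by 4.98 ± 0.50 (10 of 10, limma adjusted p = 0.00151) and Npy2r by 4.30 ± 0.80 (10 of 10, limma adjusted p = 0.0292). The CART gene Cartpt (4.35 ± 0.63), the GABA receptor subunit Gabra3 (4.31 ± 0.51), the cerebellin Cbln4 (3.87 ± 0.71), the serotonin receptor Htr5b (3.71 ± 0.45), Kcnk3 (3.66 ± 0.63) and Pcsk1 (1.48 ± 0.19) were higher as well. Cbln4 had 10 reads in 27 Uts2b cells and 16 others (3.88%), so it passed the filter only through the Uts2b cells and its difference is a description. The lower genes were led by the phosphodiesterases Pde2a (-3.89 ± 0.64) and Pde4b (-3.13 ± 0.52), Tspan4 (-3.04 ± 0.56), Rcn1 (-2.44 ± 0.51), the potassium channel Kcnc4 (-2.41 ± 0.47), Sbk1, Gng5 and Lgals9. In all, 52 genes were higher (0.409%) and 32 lower (0.252%), 0.661% of 12701. This count was not stable: leaving out 1 mouse moved it between 0.102% and 1.21% of genes higher and between 0.0157% and 0.787% lower, with the highest counts without IntM mouse 20 and the lowest without mouse 36 of the code na. With Uts2b cells taken at 100 reads limma called 0 genes in either direction (5.28% higher and 5.64% lower at an unadjusted p under 0.05), and edgeR with the main threshold called 8 and 5. Across the left-out mice Pcsk1 and Trpc6 stayed past the threshold in 10 of 10 cases (highest limma adjusted p of 0.0214 and 0.00966), as did Cartpt, Gabra3 and Htr5b. Leaving out 1 mouse ended the call of Rcn1 in 8 of 10 cases, of Npy2r, Cbln4 and Kcnc4 in 7 each, of Sbk1 in 6, of Tspan4 in 5, of Cckar and Kcnk3 in 4 each, of Pde2a and Lgals9 in 2 each and of Gng5 and Pde4b in 1 each.

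The droplet library measured the gene in younger mice. It held 1087 neurons and 21 satellite glia, classed by markers. The neurons carried 4300 UMIs of Uts2b, 63.5 CPM (exact Poisson 95% interval 61.6 to 65.4), and the glia 0, which allows 8.89 CPM. This is 1 library, so no test was made and all intervals cover counting error only. As in picked cells the gene was concentrated in a minority of neurons. Uts2b was at 0 UMIs in 726 neurons, 1 in 18.58% of neurons, 2 to 9 in 71, 10 to 49 in 63 and 50 or more in 25, with 250 in the highest. The 88 neurons with at least 10 UMIs are 8.10% of all, and the 50 highest neurons held 74.6% of the UMIs.

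Neurons were grouped into 29 clusters on variable genes that held neither Uts2b nor any listed gene, so that Uts2b did not define them, although other genes of the same cells did. Cluster 0 (86 neurons) stood at 655.9 CPM (633.8 to 678.6) and held 77.6% of all Uts2b UMIs, with a UMI in 80 neurons (93.02%) and a median of 28. Leading genes were ranked by fold among genes above a set minimum CPM in the cluster, so genes of lower level are not among them. By this rule cluster 0 was led, besides Uts2b, by Gabre, a GABA receptor subunit, at 27.2 times its level in the other neurons, Cbln4 (22.9 times), Cckar (13.5 times), Myl1 (9.81 times) and the adhesion gene Amigo2 (8.82 times). Cluster 13 (37 neurons) stood at 224.8 CPM (207.1 to 243.5) with 13.9% of the UMIs, and was led by Ctla2a, the oncostatin M receptor gene Osmr, Vip (990.6 CPM, 9.37 times), Ceacam10 and Kcnf1. Cluster 6, led by Rtp1, Chil1, Gas7, Gal and Syt13, was next at 20.03 CPM (14.6 to 26.9). The other 26 clusters lay between 2.92 and 11.2 CPM. At a finer resolution of 2 the leading cluster held 28 neurons and 36.9% of the UMIs.

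**Figure D4:**
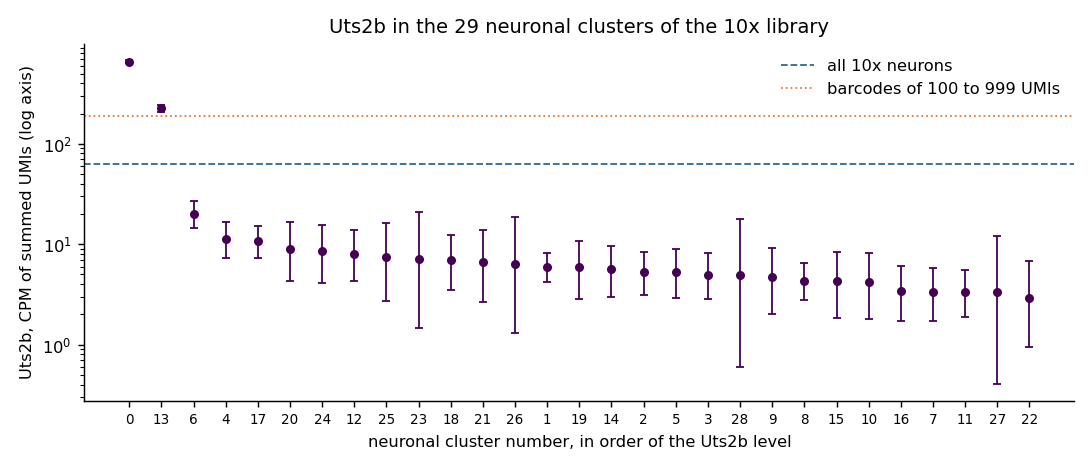
Uts2b in the 29 neuronal clusters of the 10x library, as CPM of summed UMIs on a log axis, in order of the level. Bars are exact Poisson 95% intervals. Clusters 0 and 13 stand at 655.9 and 224.8 CPM and all others at 20.03 CPM or lower. The dashed line is the level of all neurons (63.5 CPM) and the dotted line that of barcodes with 100 to below 1000 UMIs (189.5 CPM).

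Low counts were spread over all clusters. In the 27 clusters after the first 2, 26.1% of 964 neurons (exact interval 23.4 to 29.04) had a UMI of Uts2b, and the level was 6.09 CPM (5.48 to 6.74). The share among satellite glia was 0 of 21, at a median of 14919 UMIs per cell against 54168 in those neurons, which allows up to 14.3%. With every neuron thinned to 10000 UMIs, 6.22% of the 964 had a UMI, against 81.4% of cluster 0 and 43.2% of cluster 13. Barcodes of 100 to below 1000 UMIs, under the lowest of the filtered set, held Uts2b at 189.5 CPM (183.1 to 195.98), above the level of neurons, so a single UMI in a neuron is not read as expression here. The share of all neurons with a UMI was 33.2% (30.4 to 36.1) without thinning and 13.4% with it.

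The genes whose level followed Uts2b most closely over the 1087 10x neurons, by Pearson's r of log2 of counts per 10000 plus 1 among 9958 genes with a UMI in 5 to 95% of neurons, were Cckar (r = 0.68), Amigo2 (0.63), Myl1 (0.61), Gabre (0.57), Cbln4 (0.57), the soluble guanylate cyclase subunit Gucy1b3 (0.56), Trpc6 (0.56), the netrin receptor Unc5b (0.55), Rab3c (0.55) and Slc35b4 (0.55). In neurons with at least 10 UMIs of Uts2b, Cckar stood at 2008 CPM against 117.4 CPM in neurons with none, and Trpc6 at 25.1 against 0.396 CPM. The lowest r were those of Hpcal1 (-0.37), Smim20 (-0.32), Synpr (-0.31), Gcnt2 (-0.31) and Parvb (-0.30). Over the picked cells, with each value centred on its mouse, the highest of 12036 genes were Trpc6 (r = 0.73), Myl1 (0.67), Gabra3 (0.65), Glp1r (0.64), Sctr (0.64), Upp1 (0.64), the connexin Gja3 (0.64), Gucy1b3 (0.62), Gucy1a3 (0.62) and Cbln4 (0.61). These are descriptions across cells, which share depth and, in the 10x library, 1 preparation. Of 726 10x neurons without Uts2b, 2.20% had a UMI of Gabre, 3.86% of Cbln4, 3.03% of Gucy1b3 and 1.93% of Trpc6. These genes thus passed the filter of 5% there only through neurons with Uts2b. Of picked cells without Uts2b, 3.88% had 10 reads of Sctr and 3.88% of Cbln4, under the filter too. Their ranks in those data are no evidence, and Gucy1b3 and Gucy1a3 were not checked in picked cells. Of the 10 highest genes in the 10x library, Trpc6 had rank 1 in the picked cells, Myl1 rank 2, Cckar rank 12 (r = 0.59), and the lowest was Unc5b (r = 0.31). Of the 50 highest genes in each, 17 were shared (34% of either list). Only 9305 genes were ranked in both, and Glp1r and Gja3 had no rank in the 10x library, so they could not be shared. The overlap to be had by chance was not computed.

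Other values of the 10x library can be set beside those of the picked cells. In neurons with at least 10 UMIs of Uts2b against those with none, Vip stood at 683.0 and 79.7 CPM, Cartpt at 3481 and 640.5, Sctr at 28.1 and 0.886, Pcsk1 at 142.3 and 42.1, Pam at 571.4 and 172.4 and Npy2r at 226.7 and 57.9. Pcsk2 stood at 96.3 and 177.2 CPM, Adcyap1 at 17.5 and 95.4, Gpr65 at 1.43 and 54.7, Pou4f1 at 3.94 and 92.3 and Casz1 at 3.40 and 67.7. Oprm1 stood at 5.37 and 8.25 CPM and Chgb at 25.4 and 38.6, the opposite direction to that among picked cells. Trpa1, which did not pass among picked cells, stood at 14.7 and 124.2 CPM. Oxtr stood at 10.6 and 8.53 CPM. Median UMIs per neuron were 63394 at 10 to 49 UMIs of Uts2b and 51686 at none, and the part of depth was not tested. Glp1r had 1 UMI in the neurons with no UMI of Uts2b and 0 in those with at least 10, so it could not be compared there, and Uts2 had 0 UMIs in the neurons.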

How the data were processed

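Picked cells were deposited by the authors as log2 reads per gene and cell, with the value -5.64 (log2 of 0.02) for no reads, per the file headers and values; 94.1% of the values above it were whole reads within 0.001. No source names the aligner or counter of these cells. The 10x files hold UMI counts deposited by the authors, made with Cell Ranger 2.0.1 on mm10 per the submitters' processing notes. Of 453 picked columns, 1 matched no sample and was left out, leaving 452 cells, of which 449 passed a minimum of 2000 genes. Genes needed 10 reads in at least 5% of cells.

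Reads were recovered from the log2 values and scaled to each cell's total (CPM). The mouse was the replicate, with means of log2(CPM + 1) over its cells for mice of at least 4 cells (limma 3.58.1 with an intensity trend, R 4.3.3, Benjamini-Hochberg over all genes). Cells with and without Uts2b were compared with the mouse as a block, which pairs cells of the same animal by the mouse in the table's header. EdgeR 4.0.16 on summed reads was an alternative, as were other thresholds, pseudocounts, filters, thinning and leaving out each mouse. Shares were compared by exact permutation tests (scipy 1.17.1). Data were simulated with 100 genes changed by 2 and 100 by 4 on the log2 scale. The paired limma fit recovered 82% and 88% and called 15 unchanged genes. The paired edgeR fit recovered 86% and 89% and called 157 unchanged genes. Reads were drawn around 1 mean per gene for all mice, so differences between mice were not simulated. 10x neurons were clustered with scanpy 1.11.5 (2000 variable genes without Uts2b and the list genes, 30 components, 15 neighbours, Leiden resolution 1.5), and 3 barcodes called as doublets were kept. Median depth was 55397.5 UMIs per barcode (13505 to 169263). Intervals cover counting error only.

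Named genes were the 8 highest and 8 lowest differences, up to 2 each way per list, and the 10 highest and 5 lowest correlations; further list members that passed are named to complete each list's count. The gene, the 6 lists and the 11 marker lists were chosen with earlier results of these data known.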

Additional observations from a re-analysis of the deposited data

Results flagged for a closer look

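In IntP mouse 16, 1 of 7 cells had at least 10 reads of Uts2b (14.3%), while the other 3 IntP mice had none. With those 3 mice at 0, any share above 0 would have been marked, so the mark is no evidence, and here it is a single cell. The mean log2(CPM + 1) of the same mouse was not marked.

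Uts2b was also present in 10x barcodes outside the filtered set. Barcodes of 100 to below 1000 UMIs held 3354 UMIs of Uts2b, or 189.5 CPM (exact Poisson 95% interval 183.1 to 195.98), in 3055 of 71478 barcodes with at most 13 in one. Barcodes of 1 to 99 UMIs held 72 UMIs, or 116.3 CPM (90.96 to 146.4). The neurons stood at 63.5 CPM. All 2468 barcodes of at least 1000 UMIs, the filtered set among them, stood at 61.5 CPM. The ratio of the first level to that of neurons was 2.98 for Uts2b, rank 52 of 11188 genes with at least 200 UMIs, whose median ratio was 0.773. It was 2.17 for Myl1, 1.56 for Sst, 0.596 for Vip and 0.586 for Cckar.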

How the results depend on the processing

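Gast minus Int stayed below 0 in every alternative run but lost its call (limma unless named) at a pseudocount of 10 (-0.49, adjusted p = 0.0662), without the filter on low genes (-0.87, 0.0570), with edgeR (-1.48, 0.520), in mice numbered up to 39 (-0.95, 0.0896), with cells thinned to 100000 reads (-0.72, 0.113), without IntM (-0.42, 0.377) and with values under 10 reads set to 0 (-0.65, 0.112). Leaving out 1 mouse gave -1.03 to -0.64. The last 2 settings were chosen after seeing the data. The F across Int codes was 1.502 with edgeR and 4.60 to 16.9 with 1 mouse left out. GastG minus GastP turned to -1.82 with edgeR and -0.53 in mice up to 39, and ran from -0.15 to 0.39 with 1 mouse left out, with values below 0 without mice 9, 43 or 44. IntL minus the other Int codes turned to 0.047 at a pseudocount of 10, 0.43 with edgeR, 0.27 thinned and 0.25 with values under 10 reads set to 0, and ran from -0.997 to 0.53 with 1 mouse left out (0.15 without mouse 33, 0.53 without mouse 34). The Gast share difference at 1 read was -18.4 points (exact permutation p = 0.0459), and -6.71 to -3.91 with 1 mouse left out.

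Against 1630 higher and 1272 lower genes, a threshold of 1 read gave 170 and 44, thinning 947 and 751, edgeR with the replicate block 945 and 1871, and no replicate block 1558 and 1169. Within Glp1r cells, as percentages of 12701 genes (0.409 higher and 0.252 lower), limma called 0 and 0 at 1 read (2.97 and 2.83 at an unadjusted p under 0.05) and at 100 reads, 0.252 and 0.134 at a pseudocount of 0.1, 0.772 and 0.504 with no replicate block, 0.0157 and 0 thinned (5.46 lower at an unadjusted p under 0.05), 0.0236 and 0.0472 in mice up to 39, and 0.102 and 0.0157 without na mice. EdgeR with the replicate block called 0.0630 and 0.0394. Leaving out 1 mouse gave 0.102 to 1.21 higher and 0.0157 to 0.787 lower. Of 1035 values for 36 named genes in the first comparison 56 lost the call, and 40.3% of those for 19 genes within Glp1r cells; 0 reversed in either. The share of 10x neurons with Uts2b was 14.6% at 2 UMIs, 8.10% at 10 and 13.4% thinned, and the leading cluster held 36.9% of UMIs at resolution 2 and 80.9% thinned. The causes of these changes were not tested.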

Other observations

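The share of picked cells with 1 to 9 reads of Uts2b was set against the highest cell of the same mouse, which was left out. Where no cell reached 10 reads, that cell itself had 1 to 9 reads or none, which lowered the percentage by construction. In GastG mouse 7 it took 1 of 5 cells to 0 of 4. A positive relation is thus partly built in, and the p values below do not test it. Over 33 mice of at least 4 cells, the log2 of the highest read number and the percentage of the remaining cells with 1 to 9 reads had a Pearson's r of 0.352 (permutation p = 0.0454) and a Spearman's rho of 0.469 (permutation p = 0.00709), the only relation of this kind computed. Without the 2 mice farthest from the median, r was 0.308 (permutation p = 0.0928), close in size but past the threshold no longer. It was 0.420 in the 24 mice numbered up to 39 (permutation p = 0.0410) and 0.0230 in the 9 later mice (permutation p = 0.964). The median percentage was 36.4 in 7 mice whose highest cell had at least 1000 reads and 7.14 in the other 26. Of the 87 cells with 1 to 9 reads, 7 had at least 1000 reads of Cckar and 39 had at least 10 reads of Gpr65.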
